A study of Mus musculus with 12 samples.

Results

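The 8 genes Spo11, Prdm9, Dmc1, Msh4, Msh5, Mlh3, Meiob and Mei1 carry out or are required for meiotic recombination. They were taken by gene symbol from a table of 20718 genes measured by RNA sequencing of mouse testis, and all 8 were found in it, once each. The rule that took them used no measured value, but the list was drawn up with earlier results of these data known. All 8 passed the filter on low counts that 16296 genes passed.

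There were 4 groups of 3 libraries from testes of ICR mice (spelled IRC in the labels), all injected with lentivirus into the testis. F0_5251KD received the LV3 vector with 3 short hairpin RNAs, mixed, against the long non-coding RNA lncRNA5251, and F0_3NC received the LV3 vector as its negative control. F0_5251OV received the LV5 vector with full-length lncRNA5251 for overexpression, and F0_5NC received the empty LV5 vector. Per the study's methods the males were 4 weeks old at injection and 9 weeks old at mating, and the testes were collected after 4 days of mating and 4 further days. There was no uninjected group among these 12 libraries, and no gene of the table carries the name lncRNA5251, so no level of the target is given here. Nothing in the labels ties the libraries to different animals, and p-values therefore measure only a spread between libraries that may be technical.

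The totals were 15431383 to 16355720 estimated counts per library, which is nearly equal depth. Marker genes of the germ cells were abundant in all libraries. The 10 genes listed for pachytene spermatocytes summed to 7556 to 8823 CPM (counts relative to the scaled total of the library), and the 12 genes listed for elongated spermatids to 23670 to 30680 CPM, and no gene of either list was at 0 in all libraries. F0_3NC replicate 2 stood apart from the other two libraries of its group, with a chi-square per gene of 17.7 and 20.2 against 3.73 between those others. F0_5251OV replicate 1 stood apart likewise, with 13.5 and 16.5 against 4.75, and F0_5NC replicate 1 with 13.1 and 9.71 against 5.29. The vector backbone of the F0_3NC and F0_5251KD groups differs from that of F0_5NC and F0_5251OV, and any batch that follows the backbone cannot be told apart from it, so each treatment was compared within its own backbone.

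In meiotic prophase, recombination begins with programmed double-strand breaks in DNA and ends with crossovers that hold homologous chromosomes together until they separate. PRDM9 is a zinc finger histone methyltransferase that marks the sites of most breaks in the mouse. SPO11 is the topoisomerase-like protein that cuts, and MEI1 is required for breaks to form. DMC1 is the meiotic recombinase that pairs the broken end with the homologous chromosome, and MEIOB binds single-stranded DNA together with SPATA22. MSH4 and MSH5 form a heterodimer that stabilises the joined molecules, and MLH3 is part of the endonuclease that resolves them into crossovers. In the testis these proteins act mainly in spermatocytes.

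On the genome build GRCm38.p6 (RefSeq annotation), Prdm9 lies on chromosome 17 from 15543072 to 15564374 on the minus strand, Spo11 on chromosome 2 from 172977379 to 172993576 on the plus strand, and Mei1 on chromosome 15 from 82070074 to 82126817 on the plus strand. Dmc1 lies on chromosome 15 from 79561497 to 79605159 on the minus strand and Meiob on chromosome 17 from 24804301 to 24839788 on the plus strand. Msh4 lies on chromosome 3 from 153857141 to 153906138, Msh5 on chromosome 17 from 35028605 to 35046997, and Mlh3 on chromosome 12 from 85234466 to 85270647, all on the minus strand. Msh4 had the largest share of 50-base runs in its annotated transcripts that also occur, on either strand, in transcripts of other genes, at 3.93%. That share was 0.672% for Prdm9 and 0.079% for Mlh3, and no run was shared for Spo11, Dmc1, Msh5, Meiob or Mei1. How far such runs make the counts less certain was not tested.

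Entry into meiosis is driven by STRA8 and MEIOSIN, which bind the letters CNCCTCAG in the promoters of many meiotic genes. These letters were searched on both strands in the 250 bases upstream of annotated starts. Promoter windows were given for 6 of the 8 genes, all but Spo11 and Meiob. Each window ends at a RefSeq transcript start. Those of Msh4, Msh5 and Mei1, and 1 of the 2 of Prdm9, lie wholly inside the gene, so the bases upstream of the outermost starts of Msh4, Msh5 and Mei1 printed above were not searched. The STRA8/MEIOSIN letters were found for 2 of the 6 genes, Prdm9 (1 of its 2 windows) and Msh5, and in 6.42% of all 32851 windows. Prdm9 and Mlh3 had 2 windows each, so a share of genes is not the same measure as a share of windows. Of the other motifs, TTTCCCGC, the letters bound by E2F factors, was found in the Msh5 window only, against 0.89% of all windows. Neither AACCGTT (MYBL1, 0.77% of all windows) nor TGACGTCA (CRE, 1.55%) was found in a window of the 6. The windows of Dmc1, Msh4, Mlh3 and Mei1 held none of the 4 motifs. The 2 matched stretches are shown because they hold the only matches among these genes, and no binding or activity was measured at them. Both are read 5′ to 3′ on the minus strand, from RefSeq on GRCm38.p6, with the matched letters in capitals. The Prdm9 stretch covers chr17:15564377-15564406, and its match begins at position -41 counted from the transcript start at 15564354.
Prdm9: tcttgttcccgCCCCTCAGccagctgtctg
The Msh5 stretch covers chr17:35046680-35046704, inside the gene, and its positions are counted from the transcript start at 35046622. Its first capitals are the STRA8/MEIOSIN letters on the other strand, at position -82, and its last capitals are the E2F letters on the other strand, at position -65.
Msh5: CTGAGGTGacggaaaagGCGGGAAA

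The levels of the 8 genes differed by a factor of about 20.8 from the highest to the lowest. Levels are given in RPKM, reads scaled by transcript length and library total, with the mean ± SD over all 12 libraries. Spo11 was the highest at 27.2 ± 4.59, followed by Meiob at 15.1 ± 1.51 and Mlh3 at 8.58 ± 0.855. Dmc1 at 6.71 ± 0.498, Msh5 at 5.77 ± 0.426 and Msh4 at 5.25 ± 0.484 were close together. Prdm9 at 2.23 ± 0.398 and Mei1 at 1.31 ± 0.166 were the lowest. Among the genes tested, Spo11 stood at the 77.8th percentile of mean RPKM and Mei1 at the 22.1st. The order held in all 12 libraries at 5 of the 7 steps. At the other steps Dmc1 was above Msh5 in 11 of 12 libraries and Msh5 above Msh4 in 9 of 12, so the order of Msh5 and Msh4 is within the spread between libraries. By CPM, which is not scaled by length, Mlh3 came first, since its transcript is long.

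**Figure D1:**
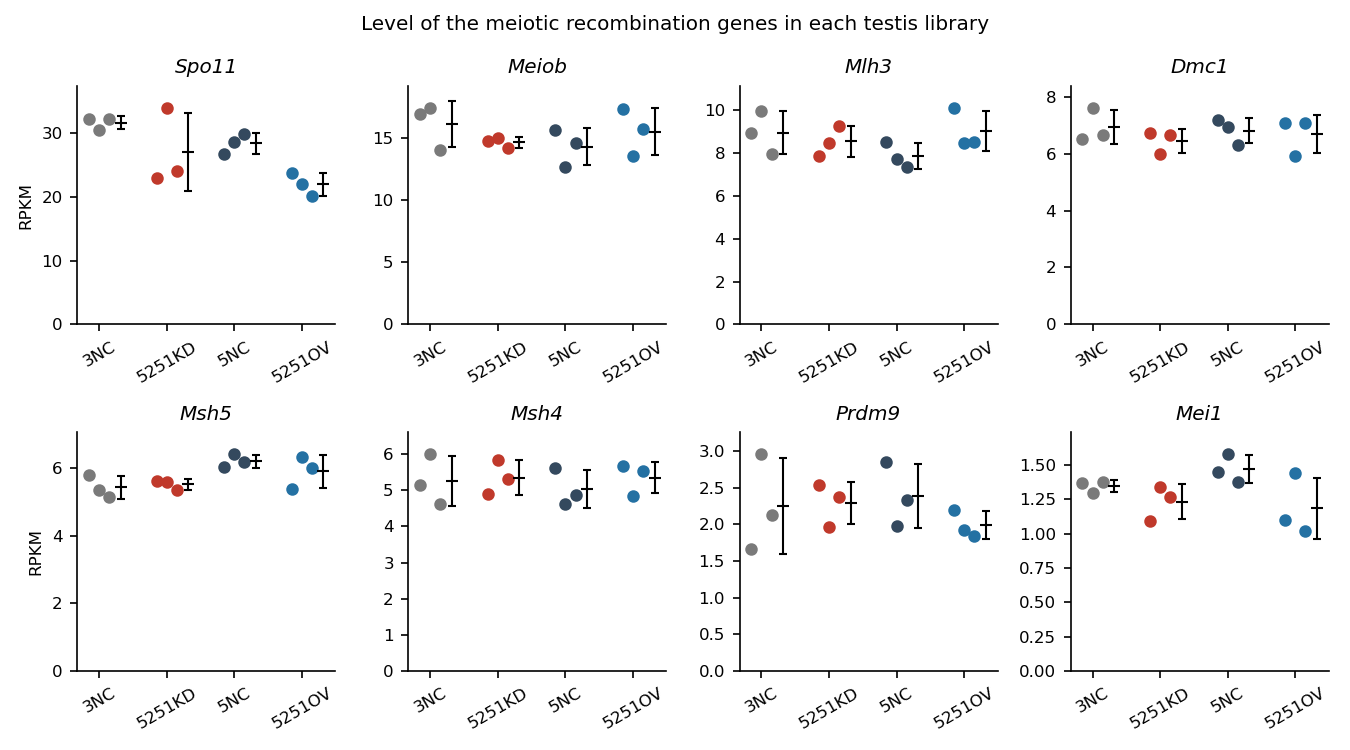
Level of each of the 8 genes (RPKM, linear axis from 0) in the 4 groups; each point is 1 library, and the black bar is the mean with its SD (n = 3). The F0_ prefix is left off. The spread between groups is small beside the differences between genes, and Spo11 shows the clearest gap, with all F0_5251OV points (20.1 to 23.8) below all F0_5NC points (26.6 to 29.8).

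The counts behind these levels ranged from 63 to 90 per library for Mei1 and from 626 to 883 for Mlh3. The spread between libraries of a group, as a coefficient of variation of CPM, was 10.4% for Mei1, against 11.4% from counting alone. It was 7.32% against 6.81% for Dmc1 and 7.52% against 6.43% for Msh5. The spread was further above counting for the rest, at 12.8% against 3.94% for Spo11 and 16.7% against 9.03% for Prdm9. It was 8.4% against 3.69% for Mlh3, 8.48% against 5.15% for Meiob and 9.21% against 6.16% for Msh4.

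Whether knockdown of lncRNA5251 altered the recombination genes was examined in F0_5251KD vs F0_3NC. None of the 8 genes passed the test, and 6 of the 8 had estimates below 0. edgeR's quasi-likelihood test called 0 of 8 at an adjusted p under 0.05, with 0 of 8 at an unadjusted p under 0.05, and DESeq2 and limma also called 0. Over all genes tested edgeR called 0.0245% in this comparison, and 4.74% had an unadjusted p under 0.05. The median log2 fold change of the 8 genes was -0.11, beside -0.0045 over all genes tested. Because these are whole testes, fewer spermatocytes and less RNA per spermatocyte cannot be told apart in any of these values.

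Among the genes of break formation, Spo11 was at 32.2, 30.5 and 32.2 RPKM in F0_3NC and at 23, 34 and 24.1 RPKM in F0_5251KD. Replicates 1 and 3 of F0_5251KD were below every control, and replicate 2 was the highest of all 12 libraries. The log2 fold change of Spo11 was -0.23 (SE 0.132, 95% interval -0.51 to 0.05, edgeR adjusted p 0.897). Without F0_5251KD replicate 2 it was -0.43, and without F0_5251KD replicate 1 it was -0.12, with adjusted p of 0.828 and 1 by edgeR. Prdm9 was at 1.67, 2.96 and 2.13 RPKM in F0_3NC and at 2.54, 1.97 and 2.37 RPKM in F0_5251KD. The controls enclosed all of the knockdown values, and the log2 fold change was 0.00 (SE 0.183, 95% interval -0.39 to 0.4). Mei1 was at 1.37, 1.3 and 1.38 RPKM in F0_3NC and at 1.09, 1.34 and 1.27 RPKM in F0_5251KD. Its log2 fold change was -0.17 (SE 0.157, 95% interval -0.5 to 0.17, edgeR adjusted p 0.898).

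Of the strand exchange genes, Dmc1 was at 6.5, 7.61 and 6.65 RPKM in F0_3NC and at 6.71, 5.97 and 6.64 RPKM in F0_5251KD. The estimate was -0.15 on the log2 scale (SE 0.109, 95% interval -0.39 to 0.08). Meiob was at 16.9, 17.4 and 14 RPKM in F0_3NC and at 14.7, 15 and 14.2 RPKM in F0_5251KD, with a log2 fold change of -0.14 (SE 0.11, 95% interval -0.38 to 0.1). For both genes the groups overlapped on this scale. On the scale of CPM after TMM scaling, the knockdown libraries lay below all controls for Dmc1 and for Mei1, which is 2 of 8 genes, while 11.8% of all genes tested did not overlap in this comparison. By RPKM the groups overlapped for all 8.

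The crossover genes had estimates within 0.1 of 0 on the log2 scale. Msh4 was at 5.15, 6 and 4.61 RPKM in F0_3NC and at 4.89, 5.84 and 5.32 RPKM in F0_5251KD (log2 fold change 0.02, SE 0.117). Its partner Msh5 was at 5.81, 5.35 and 5.15 RPKM and at 5.64, 5.61 and 5.35 RPKM (-0.01, SE 0.109). Mlh3 was at 8.9, 9.95 and 7.94 RPKM in F0_3NC and at 7.85, 8.47 and 9.26 RPKM in F0_5251KD (-0.08, SE 0.1). In each of these genes the libraries of both groups were interleaved. The 95% intervals leave room for changes of -15.1% to 20.6% in Msh4, -15.6% to 16.8% in Msh5 and -18.4% to 10.1% in Mlh3.

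**Figure D2:**
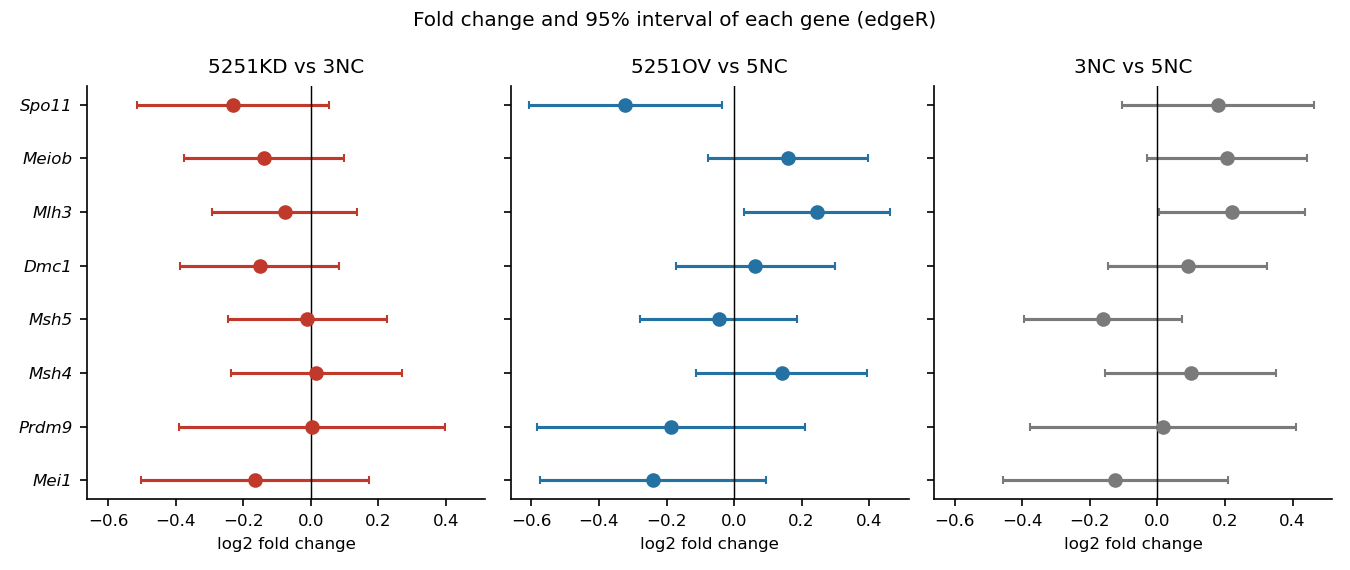
Log2 fold change of each of the 8 genes (horizontal axis) with its 95% interval from edgeR, in 3 comparisons of 3 against 3 libraries. The intervals of Spo11 and Mlh3 in F0_5251OV vs F0_5NC, and of Mlh3 in F0_3NC vs F0_5NC, leave out 0 before adjustment for the number of genes tested, and no gene passed after it.

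Overexpression was examined in F0_5251OV vs F0_5NC. No gene of the 8 passed the adjusted test. Spo11 was lower and Mlh3 higher at an unadjusted p under 0.05, 4 of the 8 estimates were above 0 and 4 below, and the median log2 fold change was 0.0089, beside -0.0020 over all genes tested. edgeR called 0 of 8 at an adjusted p under 0.05 and 2 of 8 at an unadjusted p under 0.05, and DESeq2 and limma called 0 of 8. Over all genes tested edgeR called 0% and 8.77% had an unadjusted p under 0.05, while DESeq2 called 29 genes and limma called 0.

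Spo11 was at 26.6, 28.6 and 29.8 RPKM in F0_5NC and at 23.8, 22 and 20.1 RPKM in F0_5251OV. All overexpression libraries were below all controls. The log2 fold change was -0.32 (SE 0.133, 95% interval -0.61 to -0.04, edgeR unadjusted p 0.0303, adjusted p 0.552), a level -20% from that of the control. Leaving out each library in turn gave log2 fold changes of -0.4 to -0.27, and over all alternatives the adjusted p was between 0.49 and 0.987. The table holds 1 value for the gene, so the splice forms of Spo11, which follow each other during prophase, are not separated.

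Mlh3 was at 8.5, 7.7 and 7.34 RPKM in F0_5NC and at 10.1, 8.46 and 8.48 RPKM in F0_5251OV. F0_5NC replicate 1 exceeded both lower overexpression libraries slightly by RPKM, whereas by CPM the groups did not overlap. The log2 fold change was 0.25 (SE 0.1, 95% interval 0.03 to 0.46, edgeR unadjusted p 0.0285, adjusted p 0.552). It was 0.17 without F0_5251OV replicate 1, and the adjusted p over all alternatives was between 0.43 and 0.987. The CPM of Spo11 and Mlh3 made 2 of 8 genes whose groups did not overlap, beside 13.9% of all genes tested.

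The ratio of Spo11 to Mlh3 within a library does not depend on scaling between libraries, and it was chosen after the values were seen. Spo11 and Mlh3 were the members with an unadjusted p under 0.05 by edgeR in F0_5251OV vs F0_5NC, in opposite directions. A gap in their ratio there therefore adds no support to either estimate. By RPKM the ratio was 3.13 to 4.06 in F0_5NC and 2.36 to 2.6 in F0_5251OV, without overlap. In the other backbone it was 3.07 to 4.06 in F0_3NC and 2.6 to 4.01 in F0_5251KD, and these overlapped.

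The other 6 genes had intervals that included 0. Mei1 was at 1.45, 1.58 and 1.38 RPKM in F0_5NC and at 1.1, 1.44 and 1.02 RPKM in F0_5251OV, with a log2 fold change of -0.24 (SE 0.156). Prdm9 was at 2.85, 1.98 and 2.34 RPKM and at 2.2, 1.93 and 1.84 RPKM (-0.19, SE 0.185). In both genes the groups overlapped by 1 library or more. Meiob was at 15.6, 12.7 and 14.5 RPKM in F0_5NC and at 17.3, 13.5 and 15.7 RPKM in F0_5251OV (0.16, SE 0.11). Dmc1 was at 7.17, 6.94 and 6.3 RPKM and at 7.07, 5.92 and 7.07 RPKM (0.06, SE 0.109). Both strand exchange genes therefore had interleaved groups. Msh4 was at 5.62, 4.62 and 4.86 RPKM in F0_5NC and at 5.67, 4.85 and 5.54 RPKM in F0_5251OV (0.14, SE 0.118). Msh5 was at 6.03, 6.42 and 6.19 RPKM and at 5.38, 6.35 and 6.01 RPKM (-0.04, SE 0.108).

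In the same comparison the marker lists of somatic cells had medians below 0, and those of spermatocytes and spermatids had medians above 0. The 10 Sertoli cell genes had a median log2 fold change of -0.36 and all 10 estimates were below 0, and the 10 Leydig cell genes had a median of -0.22 with all 10 below 0. The medians were -0.42 for the 6 peritubular myoid genes (5 below 0) and -0.34 for the 9 macrophage genes (8 below 0). They were -0.29 for the 8 endothelial genes and -0.39 for the 3 epididymis genes tested, with all estimates below 0. Actg2, a peritubular marker at 215 RPKM on average, had an estimate of 0.165. The summed peritubular markers overlapped, at 304.6 to 362.8 CPM in F0_5NC and 317.5 to 359 CPM in F0_5251OV. The 6 epididymis markers measured differed widely within groups, with sums of 15.7 to 110.8 CPM in F0_5NC and 3.554 to 79.16 CPM in F0_5251OV. In F0_3NC they summed to 4.865 to 10.37 CPM and in F0_5251KD to 1.97 to 4.863 CPM. No marker gene passed the adjusted test. The summed Sertoli markers were at 850 to 1261 CPM in F0_5NC and 658 to 817 CPM in F0_5251OV, and F0_5NC replicate 1 held the value of 1261. The summed Leydig markers overlapped, at 1911 to 3198 and 1554 to 2237 CPM, and no Sertoli or Leydig marker was at 0 in all libraries. The medians were 0.06 for pachytene spermatocytes, 0.1 for round spermatids, 0.05 for elongated spermatids and -0.07 for spermatogonia. The part of these markers in the values of Spo11 and Mlh3 was not tested. In F0_5251KD vs F0_3NC the somatic medians were 0.09 for Sertoli cells (7 of 10 above 0), 0.23 for Leydig cells (7 of 10), 0.08 for peritubular myoid cells (6 of 6), 0.08 for macrophages (7 of 9) and 0.25 for endothelium (8 of 8), and -0.78 for the 3 epididymis genes. The summed endothelial markers were at 37.5 to 42.4 CPM in F0_3NC and 46.5 to 50.5 CPM in F0_5251KD, without overlap. The germ cell medians were 0.0011 for spermatogonia, -0.03 for pachytene spermatocytes, -0.02 for round spermatids and 0.03 for elongated spermatids, and no marker passed the test. The part of these markers in the knockdown values of the 8 genes was not tested.

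The controls of both backbones were set side by side in F0_3NC vs F0_5NC, which gives the size of differences between groups that were both without the treatment. No gene of the 8 passed the adjusted test. edgeR called 0 of 8, with 1 of 8 at an unadjusted p under 0.05, and DESeq2 and limma called 0 of 8. Over all genes tested it called 0.331%, and 11.9% had an unadjusted p under 0.05. Mlh3 had a log2 fold change of 0.22 (SE 0.1, 95% interval 0.0049 to 0.4368, edgeR unadjusted p 0.0457, adjusted p 0.413). This is nearly the size of its estimate under overexpression. Meiob followed at 0.21 (SE 0.11, adjusted p 0.465 by edgeR) and Spo11 at 0.18 (SE 0.132), while Msh5 was at -0.16 (SE 0.109). By CPM the groups did not overlap for Spo11, Mlh3 and Mei1, 3 of 8 genes, beside 17% of all genes tested. The median of the 8 was 0.09, beside 0.0005 over all genes, and it was 0.02 without F0_3NC replicate 2 and 0.15 without F0_3NC replicate 1.

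Whether the response to knockdown differed from that to overexpression was tested by the difference of both effects. No gene of the 8 passed. edgeR called 0 of 8, and DESeq2 and limma called 0 of 8. Over all genes tested edgeR called 0%, with 11.3% at an unadjusted p under 0.05, DESeq2 called 34 genes and limma on log2(RPKM + 1) called 1. Mlh3 was the gene with an unadjusted p under 0.05, with a difference of -0.32 on the log2 scale (SE 0.142, 95% interval -0.63 to -0.02, edgeR adjusted p 0.425). Meiob had a difference of -0.3 (SE 0.156, adjusted p 0.465 by edgeR) and Dmc1 one of -0.21 (SE 0.155). Spo11, whose estimates were below 0 in both treatments, had a difference of 0.09 (SE 0.187, 95% interval -0.31 to 0.5).

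The libraries were compared across the 8 genes by centring the log2 CPM of each gene on its mean. F0_3NC replicate 2, which stood apart from its group over all genes, had the highest mean deviation at 0.16, with 7 of 8 genes above their own mean. It was also the library with the highest value of Prdm9, Dmc1, Msh4 and Meiob. F0_5251KD replicate 1 had the lowest mean deviation at -0.09, with 1 of 8 genes above its mean. The mean deviation of the remaining 10 libraries lay between -0.06 and 0.04. Without F0_3NC replicate 2 the median log2 fold change of the 8 genes in F0_5251KD vs F0_3NC was -0.06.

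**Figure D3:**
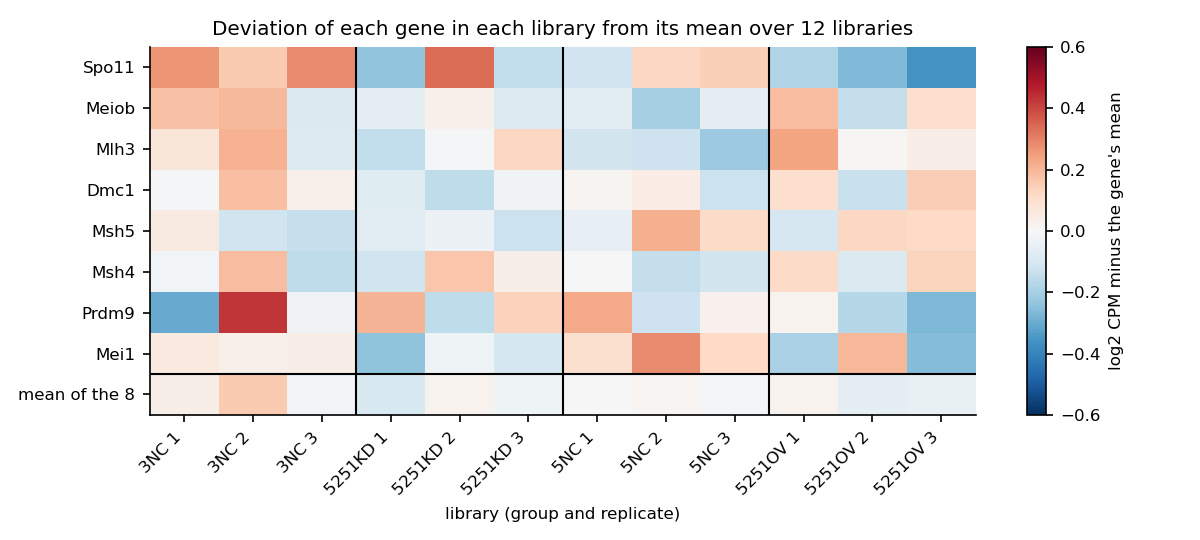
Deviation of log2 CPM from the gene's mean over 12 libraries (colour), for the 8 genes (rows) and each library (columns, grouped by black lines, F0_ prefix left off), with the mean of the 8 in the last row. No group is of one colour over all genes; F0_3NC replicate 2 has the highest mean (0.16) and F0_5251KD replicate 1 the lowest (-0.09).

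The genes did not vary as one set from library to library. Over the 12 libraries, which share similar depth and fall into 4 groups, the Pearson correlation of log2 CPM was 0.74 between Msh4 and Meiob, 0.73 between Msh4 and Mlh3 and 0.7 between Mlh3 and Meiob. After centring within groups these values were 0.78, 0.71 and 0.55. The heterodimer partners Msh4 and Msh5 had a correlation of -0.33, and Prdm9 and Msh5 one of -0.62. These are descriptions over 12 libraries, with no test. Among 15159 other genes that averaged 1 CPM or more, those whose log2 CPM was most like the mean of the 8 included Atad5 (r = 0.95), Abi2 (0.93), Ythdc2 (0.91) and Pikfyve (0.9). Without F0_3NC replicate 2 their values were 0.86, 0.88, 0.74 and 0.7 over 11 libraries.

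Partner genes were at levels near those of the 8 in some cases and far from them in others. Msh4 and Msh5 had a ratio of RPKM of 0.915 ± 0.123 over 12 libraries, and Meiob and its partner Spata22 one of 1.16 ± 0.114. Spo11 was 15.3 ± 2.94 times as high as Top6bl, which encodes the other subunit of the cutting complex. The range of the Spo11 to Top6bl ratio was 15.2 to 15.7 in F0_5NC and 11.1 to 13.7 in F0_5251OV, without overlap, and 16.4 to 19.1 in F0_3NC and 11.7 to 21.4 in F0_5251KD, with overlap. The Msh4 to Msh5 ratio overlapped between treatment and control in both comparisons, with 0.887 to 1.12 in F0_3NC and 0.867 to 1.04 in F0_5251KD, and 0.72 to 0.932 in F0_5NC and 0.764 to 1.05 in F0_5251OV.

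**Figure D4:**
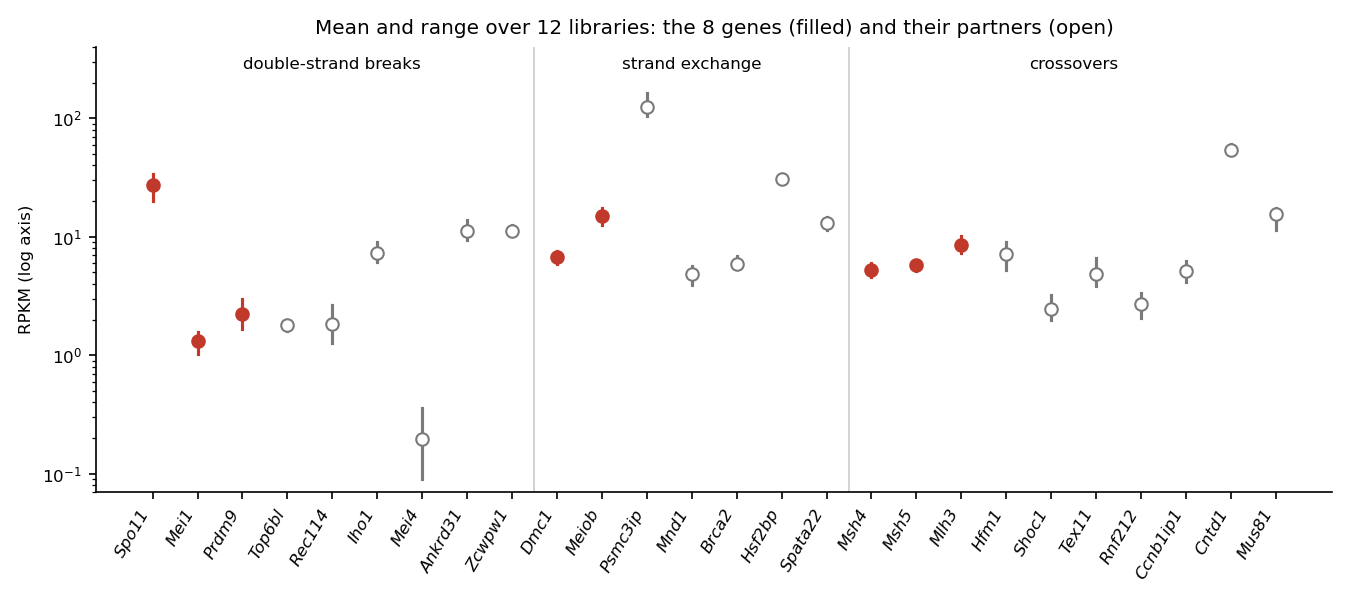
Mean level (points) and range over 12 libraries (lines) in RPKM on a log axis, for the 8 genes (filled) and 18 of the 20 partner genes (open), ordered by the step of recombination. Spo11 is the highest of the break genes shown, while Psmc3ip (125 RPKM) and Cntd1 (54.4 RPKM) are the highest of the partners.

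A further 98 genes of the pathway were tested, in 5 lists by role, and no gene of them passed the adjusted test by edgeR or DESeq2 in any comparison. In F0_5251KD vs F0_3NC, 75 of the 98 had estimates below 0, beside 50.9% of all genes, and the median log2 fold change was -0.08. Of the 98 genes 2 had an unadjusted p under 0.05, both lower. These were Shoc1, a factor that promotes crossovers, at -0.38 (SE 0.132, adjusted p 0.897 by edgeR), and Zcwpw1, a reader of the histone marks that PRDM9 sets, at -0.19 (SE 0.0854, adjusted p 0.897 by edgeR). Fignl1, an antagonist of recombinase filaments, came next at -0.17. By list the medians were -0.15 for break formation (8 of 9 below 0), -0.11 for break signalling and end processing (14 of 19), -0.06 for strand exchange (17 of 24), -0.06 for crossovers (23 of 29) and -0.09 for the chromosome axis and synaptonemal complex (13 of 17). The last list also holds Stra8, Meiosin, Meioc and Ythdc2, which are genes of entry into meiosis and not parts of the axis or complex.

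In F0_5251OV vs F0_5NC, 74 of the same 98 genes had estimates above 0, beside 49.5% of all genes, with a median of 0.07. On the scale of log2(RPKM + 1), without TMM scaling, 53 of 98 were above 0, and without F0_5251OV replicate 1 the count was 60 of 98. Of the 98 genes 2 had an unadjusted p under 0.05, both higher, namely Pms2 at 0.18 (SE 0.078), a mismatch repair gene, and Meioc at 0.37 (SE 0.161), which is required for the mitosis to meiosis transition. Both had an adjusted p of 0.552 by edgeR. Topbp1, a checkpoint factor, came next at 0.17. The medians were 0.07 for break formation, 0.08 for signalling, 0.04 for strand exchange, 0.06 for crossovers and 0.09 for the axis list, which includes Meioc. Among the 8, Spo11, Prdm9, Mei1 and Msh5 had estimates below 0 in this comparison, as had 24 of the 98. Of these members, only Spo11 had an interval that left out 0 before adjustment.

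**Figure D5:**
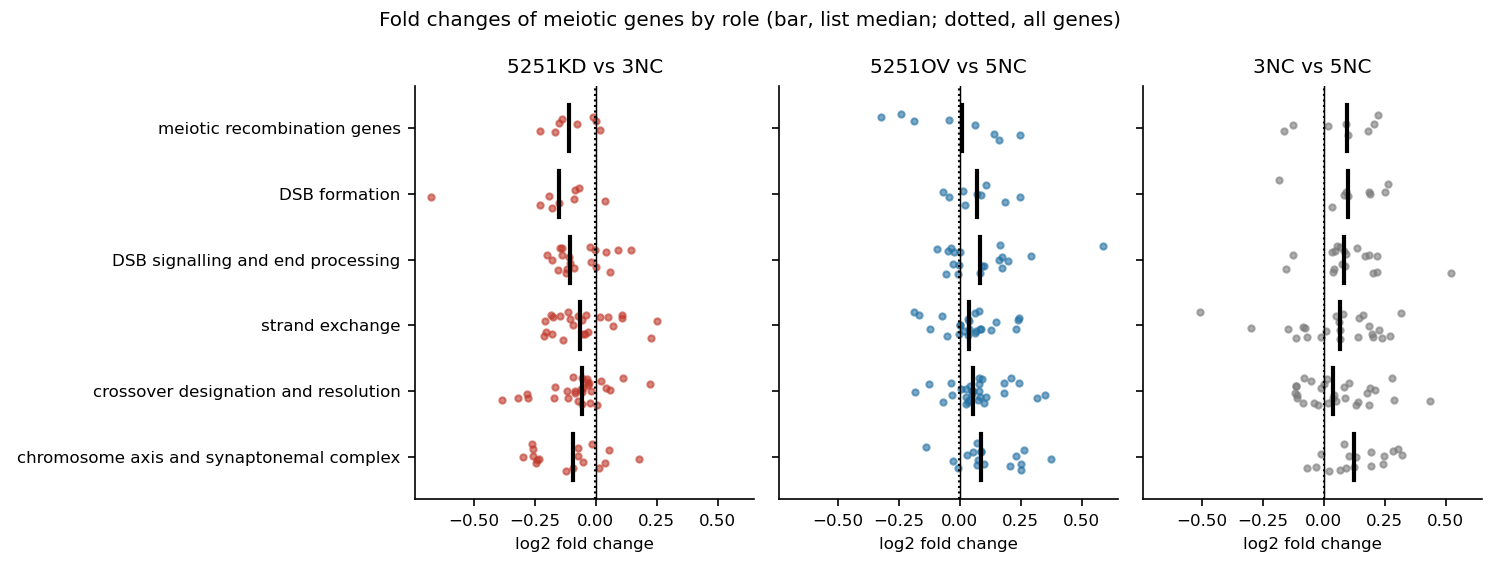
Log2 fold change (horizontal axis) of the 8 genes and of 98 further genes of meiotic recombination, chromosome structure and meiotic entry (the last within the axis list) in 5 lists, in 3 comparisons; each point is 1 gene, the black bar is the list median and the dotted line the median of all genes tested. The list medians lie between -0.15 and -0.06 in F0_5251KD vs F0_3NC and between 0.01 and 0.09 in F0_5251OV vs F0_5NC, and no single gene passed the adjusted test.

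In F0_3NC vs F0_5NC, between the controls, 73 of the 98 genes had estimates above 0 with a median of 0.08, beside 50.1% of all genes, and on the scale of log2(RPKM + 1) it was 61 of 98. This shift between 2 control groups is as large as those within each backbone. Marker lists moved with it, with 10 of 10 Sertoli genes (median -0.22), 8 of 8 endothelial genes (-0.14) and 7 of 9 macrophage genes (-0.29) below 0, and 10 of 12 round spermatid genes (0.09) above 0. The medians were -0.08 for Leydig cells, -0.1 for peritubular myoid cells, 0.05 for pachytene spermatocytes, -0.04 for elongated and spermatogonial genes alike, and -4.7 for the 3 epididymis genes. The summed epididymis markers were at 4.865 to 10.37 CPM in F0_3NC and 15.7 to 110.8 CPM in F0_5NC. The part of all these marker lists in the pathway counts of the 3 comparisons was not tested. The genes with the smallest p were Mdc1, a break signalling adaptor, at 0.2, Topbp1 at 0.22, and Rpa3, a subunit of the single-strand binding protein RPA, at -0.51, with adjusted p of 0.342, 0.346 and 0.366 by edgeR. F0_3NC is the control in the first comparison and F0_5NC in the second, so these values share samples with both. For the difference of effects, the smallest p was that of Shoc1 (-0.57, SE 0.187), followed by Meioc (-0.63, SE 0.227) and Topbp1 (-0.3, SE 0.111), all with an adjusted p of 0.403 by edgeR.

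Of the 20 partners of the 8 genes, 16 had estimates below 0 in F0_5251KD vs F0_3NC and 16 had estimates above 0 in F0_5251OV vs F0_5NC, beside 50.9% and 49.5% of all genes. Between the controls, in F0_3NC vs F0_5NC, 16 of 20 were also above 0, and no partner passed the adjusted test in any comparison. In F0_5251KD vs F0_3NC the log2 fold change was -0.09 for Top6bl, -0.07 for Rec114, -0.15 for Iho1, -0.68 for Mei4 and -0.18 for Ankrd31, all of which act with SPO11 in making breaks. Mei4 was at 0.198 RPKM on average, and its SE was 0.472. For the strand exchange partners it was 0.11 for Psmc3ip, -0.21 for Mnd1, -0.07 for Brca2, -0.06 for Hsf2bp and -0.04 for Spata22. For the crossover partners it was -0.28 for Hfm1, -0.28 for Tex11, 0.22 for Rnf212, -0.06 for Ccnb1ip1, -0.09 for Cntd1 and 0.04 for Mus81. In F0_5251OV vs F0_5NC the estimates of the 20 partners lay between -0.17 (Psmc3ip) and 0.35 (Hfm1), and the one with the smallest p was Ccnb1ip1 at 0.32 (SE 0.154, adjusted p 0.578 by edgeR).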

How the data were processed

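RNA was sequenced from testes in 4 groups of 3 libraries, taken from the labels. Messenger RNA was selected with oligo(dT) and cDNA was primed with random hexamers. Reads were mapped by SOAPaligner against reference genes. No strand-marking step is named, and per the labels the build was mm10. The authors deposited an estimated count and an RPKM value per gene and library. The counting tool was not given in the sources used here, and strandedness was not stated. The table held 18 per-sample columns that match no sample, which were not used, as were averages made by the authors and columns of their own comparisons.

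Estimated counts were rounded. edgeR 4.0.16 in R 4.3.3 (TMM, filterByExpr, two-sided quasi-likelihood test) fitted all 12 libraries in 1 model with 4 groups and 8 residual degrees of freedom. p-values were adjusted by Benjamini-Hochberg over 16296 genes, with a threshold of 0.05. Alternatives were no filter, at least 1 CPM in 3 libraries, DESeq2 1.42.0, scaling by upper quartiles, limma 3.58.1 on log2(RPKM + 1) and log2(RPKM + 0.1), the compared groups alone, a replicate block, leaving out each library, and summed counts in the sampling model named in the study's methods (adjusted p of at most 0.001, absolute log2 ratio of at least 1). Fold changes on log2(RPKM + pseudocount) understate those of low genes. Scripts were tested on simulated data with planted changes larger than any estimate for the 8 genes, so small changes were not covered.

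Same-numbered libraries did not deviate together (correlations from -0.193 to 0.092), and the labels do not say what the numbers mark. The main fit therefore used no pairing, though correlations near 0 cannot exclude a small shared effect. The 8 genes, 20 partners, 5 pathway lists and 10 marker lists were chosen with earlier results of these data known. Named were the 8 genes, their partners, the 3 pathway genes with the smallest p in each comparison, any past the adjusted threshold, and the 5 genes most like the mean of the 8. Some genes that this rule names are not reported here. Counts limit precision, and intervals of single counts cover counting error only.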

Additional observations from a re-analysis of the deposited data

How the results depend on the processing

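The count of called genes among the 8 was 0 in all 64 alternative fits over the 4 comparisons, in those that leave out a library and in the summed-count model too. The median log2 fold change of the 8 genes moved beyond the spread between replicates (an SD of 0.057) in a few fits. In F0_5251OV vs F0_5NC it was -0.0502 by limma on log2(RPKM + 0.1). In F0_3NC vs F0_5NC it was 0.0348 by limma on log2(RPKM + 1). For the difference of effects it was 0.0178 by limma on log2(RPKM + 1) and 0.0204 on log2(RPKM + 0.1). When each library was left out, the median ranged from -0.1566 to -0.0627 in F0_5251KD vs F0_3NC, from -0.0377 to 0.0556 in F0_5251OV vs F0_5NC, from 0.0196 to 0.154 in F0_3NC vs F0_5NC and from -0.1519 to -0.0166 for the difference of effects. The cause of these moves was not tested.

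Estimates near 0 changed sign. In F0_5251KD vs F0_3NC, Msh5 was at 0.0002 with at least 1 CPM in 3 libraries, 0.0225 by limma on log2(RPKM + 1) and 0.0264 on log2(RPKM + 0.1). In F0_5251OV vs F0_5NC, Dmc1 was at -0.0238 and -0.0273 by the same 2 limma fits. In F0_3NC vs F0_5NC, Prdm9 was at -0.0007 with upper-quartile scaling, and at -0.0705 and -0.1033 by limma. Leaving out libraries gave ranges that crossed 0 in F0_5251KD vs F0_3NC for Prdm9 (-0.1559 to 0.2289), Msh4 (-0.0589 to 0.1129) and Msh5 (-0.0442 to 0.0487), in F0_5251OV vs F0_5NC for Msh5 (-0.1162 to 0.0258) and in F0_3NC vs F0_5NC for Prdm9 (-0.2069 to 0.1781). For the difference of effects they did so for Spo11 (-0.1145 to 0.1903), Msh5 (-0.0358 to 0.1158) and Mei1 (-0.0113 to 0.2317). The signs of Spo11 and Mlh3 held in all alternatives of F0_5251OV vs F0_5NC.

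Over all genes edgeR called 4, 0, 54 and 0 in the comparisons as ordered in the report, and DESeq2 called 20, 29, 131 and 34. With the replicate number as a block edgeR called 2, 0, 50 and 0, and 0 of the 8 genes. The number of pathway genes with estimates below 0 was between 67 and 82 of 98 in F0_5251KD vs F0_3NC when a library was left out, and between 19 and 38 in F0_5251OV vs F0_5NC. It was 69 and 45 by limma, an alternative chosen after seeing the data. With 3 libraries a group and 63 to 883 counts per gene and library, the interval of Prdm9 was -23.8% to 31.7% in F0_5251KD vs F0_3NC and -33.3% to 15.8% in F0_5251OV vs F0_5NC.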
